A study of Mus musculus with 6 samples.

Results

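Tudor domain proteins of germ granules were followed in whole testes of mice by the level of their transcripts. The members are the 10 genes Tdrd1, Tdrd3, Tdrd5, Tdrd6, Tdrd7, Tdrd9, Tdrd12, Tdrkh, Rnf17 and Stk31, chosen by gene symbol. They were chosen with earlier results of these data known, so counts of members beside all clusters are descriptions and not tests. Each is read by 1 transcript cluster (a group of probes for 1 stretch of transcript) of an Affymetrix mouse gene array, so 10 of 21789 tested clusters and 10 of 19938 tested genes are described. The tested testes came from 3 knockout samples and were set against 3 control samples, both taken at postnatal day 15. The labels used here name no strain, no promoter or Cre that drives the deletion and no cell type that carries it, and they do not say whether a sample is 1 animal or a pool. The p-values therefore rest on sample-to-sample spread that could be technical in origin.

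Germ cells keep PIWI proteins and their small RNAs, the piRNAs, in granules beside the nucleus and the mitochondria. There the piRNAs are made and used to silence transposons, and later, as the chromatoid body, the granule stores RNA of spermatocytes and spermatids. Tudor domains bind arginines that a methyltransferase has marked on PIWI proteins, so that Tudor proteins act as the scaffold of the granule. Day 15 falls in the first round of meiosis, when the most advanced germ cells of the mouse testis are in pachytene.

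The values are log2 intensities after RMA, and all differences below are knockout minus control on that log2 scale. Array medians lay between 8.075 and 8.1, and the lowest correlation between any pair of arrays was 0.995, within as across groups. The tissue label was set against markers, named after their values were seen: the germ cell helicase gene Ddx4 averaged 11.86 in knockout and 12.06 in control arrays, and the Sertoli cell gene Sox9 averaged 11.73 in knockout and 11.65 in control arrays. The spermatid gene Acrv1 (5.51 in both) and the epididymal gene Lcn8 (6.21 in knockout, 6.15 in control arrays) lay far below the array medians. These 2 were the lowest of their lists and do not stand for them. Another spermatid gene, Prm2 (8.12 in knockout, 8.13 in control arrays), lay slightly above the medians. Another epididymal gene, Defb20, averaged 7.26 in knockout and 7.27 in control arrays. In whole testes, fewer cells of a type and less RNA per cell cannot be told apart.

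Most Tudor domain genes had lower values in the knockout testes, and the differences were small. Of the 10 genes, 9 had a lower mean and 1 a higher mean in the knockout, where 47% of all tested clusters had a lower mean. The median difference was -0.21 over the 10 genes and 0.0033 over all tested clusters. No member passed an adjusted p of 0.05 in limma over all clusters (0 of 10, against 0.0138% of tested clusters, which are 3), and the adjusted p-values ran from 0.239 to 0.958. With no adjustment, p was under 0.05 for 6 members that were lower (Tdrd1, Tdrd5, Tdrd6, Tdrd7, Tdrd9 and Tdrd12) and for 0 that were higher, where 6.45% of all clusters were lower and 4.1% higher. In 5 members all knockout values lay below all control values, a separation seen in 8.6% of clusters, while 6.73% of clusters and 0 members were separate in the higher direction. The count of 6 ranged from 4 to 7 when single arrays were left out, where 4.41% to 6.15% of all clusters were lower at that p.

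**Figure D1:**
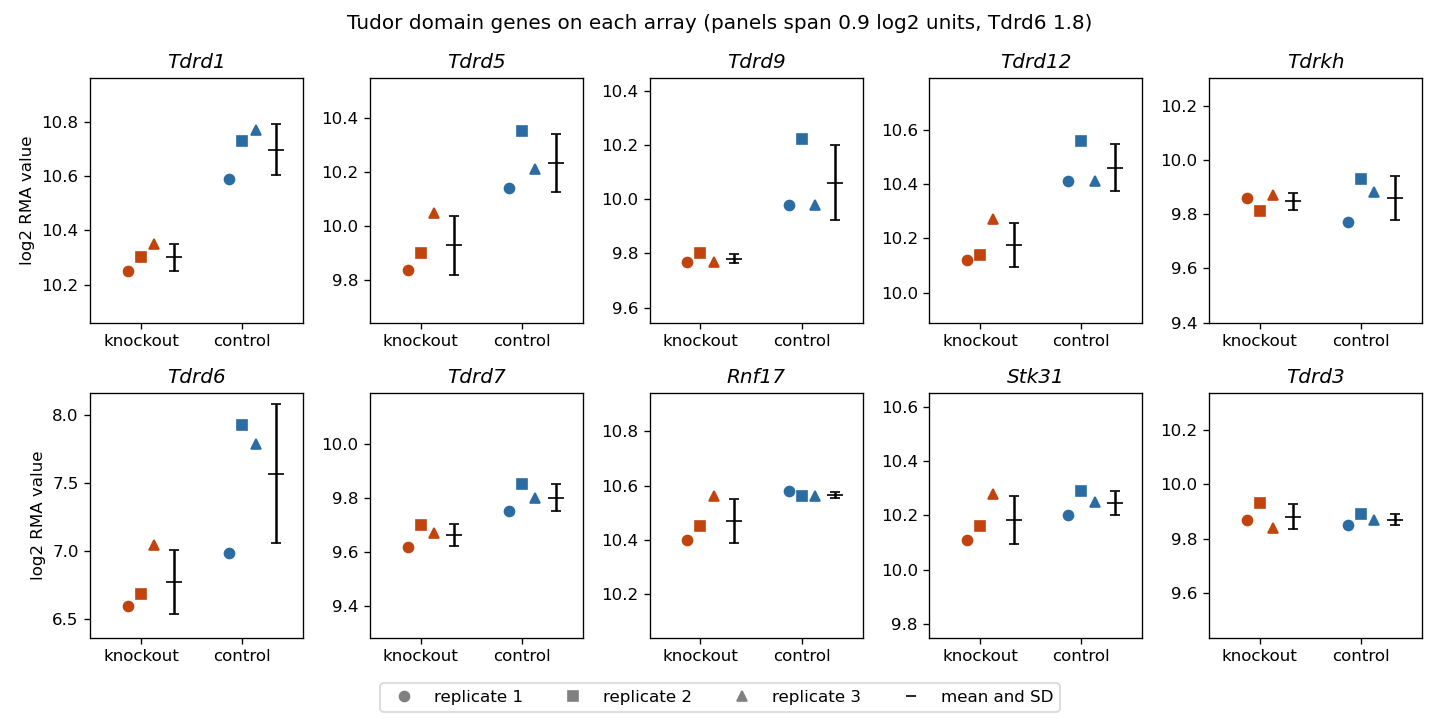
Log2 RMA values of the 10 Tudor domain genes on each array, knockout left of control in every panel; marker shapes are replicate numbers, and black bars are mean and SD (n = 3). Knockout values lie wholly below control values for Tdrd1, Tdrd5, Tdrd9, Tdrd12 and Tdrd7, and overlap or touch them in the other panels.

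The scaffold and helicase genes of piRNA production held most of the separated members. Tdrd1 encodes a scaffold of germ granules that binds the PIWI protein of Piwil2. Its cluster (10464171, chromosome 19) read 10.25, 10.30 and 10.35 in the knockout arrays, against 10.59, 10.73 and 10.77 in the control arrays. The lowest control value thus stood above the highest knockout value, and the mean was 10.30 ± 0.050 in knockout and 10.70 ± 0.094 in control arrays (SD, n = 3 each). The difference was -0.40 (SE 0.059, 95% interval -0.53 to -0.26, fold 0.760), with an unadjusted p of 2.31e-04 and an adjusted p of 0.239 in limma. By p-value Tdrd1 ranked 21 of 21789 clusters. It passed the threshold in 1 of 12 other settings, without control replicate 1 (difference -0.45, adjusted p = 0.049 in limma).

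Tdrd12 and Tdrd9 encode putative RNA helicases with Tudor domains that are needed for piRNAs of the nuclear PIWI protein. The Tdrd12 cluster (10562468, chromosome 7) had 10.12, 10.14 and 10.27 in knockout arrays, against 10.41, 10.56 and 10.41 in control arrays. Knockout replicate 3 came nearest to the control values and still lay below them. The difference was -0.28 (SE 0.063, 95% interval -0.43 to -0.14, fold 0.822, adjusted p = 0.294 in limma). For Tdrd9 (cluster 10398759, chromosome 12) the knockout arrays gave 9.77, 9.80 and 9.77, against 9.98, 10.22 and 9.98 in the control arrays. The 3 knockout values were nearly alike (SD 0.017), while control replicate 2 stood above the other controls. This made a difference of -0.28 (SE 0.070, 95% interval -0.45 to -0.11, fold 0.824, adjusted p = 0.320 in limma).

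Tdrd5, whose protein is needed for transposon silencing and for the chromatoid body, belonged to the separated genes too. Cluster 10359118 on chromosome 1 measured 9.84, 9.90 and 10.05 in knockout arrays, against 10.14, 10.35 and 10.21 in control arrays. The gap between the groups, between knockout replicate 3 and control replicate 1, was narrower than for Tdrd1. Tdrd5 differed by -0.30 (SE 0.075, 95% interval -0.48 to -0.13, fold 0.810, adjusted p = 0.320 in limma). Tdrkh encodes the Tudor and KH domain protein that holds PIWI proteins at mitochondria while piRNA ends are trimmed, and it did not show this pattern. Its cluster (10494043, chromosome 3) gave 9.86, 9.81 and 9.87 in knockout arrays, against 9.77, 9.93 and 9.88 in control arrays, so that the knockout values lay within the control range. The interval of its difference, -0.14 to 0.11 around -0.013 (adjusted p = 0.955 in limma), leaves out differences as large as those of Tdrd1.

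The upstream sequences of 5 of these genes are shown to set the 4 separated genes with the smallest p-values beside Tdrd3, whose means differed least. Each is the RefSeq window of GRCm38.p6 from 250 bases before to 50 bases after an annotated start, written 5′ to 3′. Capitals mark matches, on either strand, to the core motif of MYB factors, AACNGNC, and to the E-box CACGTG.
Tdrd1 (chr19:56825959-56826258, plus strand): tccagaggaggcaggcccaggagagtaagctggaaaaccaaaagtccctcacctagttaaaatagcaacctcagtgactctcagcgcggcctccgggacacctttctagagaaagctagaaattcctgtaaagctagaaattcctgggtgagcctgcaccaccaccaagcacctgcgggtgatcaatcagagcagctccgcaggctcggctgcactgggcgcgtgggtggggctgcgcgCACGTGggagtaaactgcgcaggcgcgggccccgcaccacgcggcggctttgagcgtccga
Tdrd5 (chr1:156303299-156303598, minus strand): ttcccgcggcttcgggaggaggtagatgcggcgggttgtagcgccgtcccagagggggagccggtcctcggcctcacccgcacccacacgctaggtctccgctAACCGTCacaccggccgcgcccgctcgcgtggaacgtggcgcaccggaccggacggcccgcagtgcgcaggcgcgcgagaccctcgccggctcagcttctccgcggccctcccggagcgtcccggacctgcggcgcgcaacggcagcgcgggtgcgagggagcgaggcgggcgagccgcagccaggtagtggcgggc
Tdrd9 (chr12:111971309-111971608, plus strand): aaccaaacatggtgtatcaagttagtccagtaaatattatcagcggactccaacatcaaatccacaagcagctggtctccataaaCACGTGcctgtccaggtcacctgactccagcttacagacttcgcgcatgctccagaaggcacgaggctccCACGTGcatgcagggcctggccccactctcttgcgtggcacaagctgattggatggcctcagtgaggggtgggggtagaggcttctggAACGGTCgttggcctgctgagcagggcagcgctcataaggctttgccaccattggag
Tdrd12 (chr7:35537666-35537965, minus strand): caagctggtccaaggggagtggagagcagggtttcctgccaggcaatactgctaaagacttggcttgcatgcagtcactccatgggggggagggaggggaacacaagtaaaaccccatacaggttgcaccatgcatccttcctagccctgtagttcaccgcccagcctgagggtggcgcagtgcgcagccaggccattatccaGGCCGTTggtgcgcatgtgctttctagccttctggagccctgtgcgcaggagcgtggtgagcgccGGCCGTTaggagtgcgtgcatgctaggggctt
Tdrd3 (chr14:87416333-87416632, plus strand): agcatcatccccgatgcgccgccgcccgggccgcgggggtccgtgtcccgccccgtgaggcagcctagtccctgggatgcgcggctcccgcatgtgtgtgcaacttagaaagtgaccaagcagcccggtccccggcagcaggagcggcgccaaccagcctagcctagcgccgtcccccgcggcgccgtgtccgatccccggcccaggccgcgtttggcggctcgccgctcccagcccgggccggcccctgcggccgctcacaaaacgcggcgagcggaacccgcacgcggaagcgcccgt

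RefSeq windows were found for 8 of the 10 genes, as 14 windows that in part overlap. The MYB factor of spermatocytes, A-MYB, is known to switch on piRNA pathway genes as germ cells enter pachytene. A match to AACNGNC lay in at least 1 window of 7 of the 8 genes (Tdrd1, Tdrd5, Tdrd7, Tdrd9, Tdrd12, Tdrkh and Stk31), and in 36% of all 27025 genes with such windows. Counts by gene favour genes with more windows, for each motif given here. The members have 14 windows for 8 genes, against 32851 windows for the 27025 genes. Counted by window, 11 of the 14 held a match, against 32.8% of all windows. Counted from the start site, the match began at base -7 in Tdrd9, at bases -47 and 19 in the printed window of Tdrd12 and at base -147 in Tdrd5. In Tdrd1 the match lay in the window of a downstream start, which is not printed. Tdrkh, whose groups overlapped, held 2 matches. The E-box was found in 3 of the 8 genes (Tdrd1, Tdrd9 and Stk31) and in 8.1% of all genes. The motif TCCCGC of E2F factors lay in 2 (Tdrd3 and Tdrd5) and in 22% of all genes, and the motif CNCCTCAG linked to STRA8 and MEIOSIN lay in 2 (Tdrd7 and Stk31) and in 9.1%. No overlap between motifs was corrected for, and G and C made up 45% to 76% of the members' windows, against a median of 52.7% over all windows. Mybl1, the gene of A-MYB, read 10.98, 11.04 and 11.14 in knockout arrays, against 11.09, 11.11 and 11.13 in control arrays, with overlapping groups and a difference of -0.057 (95% interval -0.18 to 0.064, adjusted p = 0.744 in limma). Mybl1 was named here after its values were seen. A motif match does not show that a factor binds there. Any part of MYB or the other factors in the differences of the members was not tested.

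Tdrd6 encodes a large multi-Tudor protein of the chromatoid body that is needed for spermatid development. Its cluster (10451033, chromosome 17) had 6.59, 6.68 and 7.04 in knockout arrays, against 6.98, 7.93 and 7.79 in control arrays. Control replicate 1 lay among the knockout values, and the other controls stood well above them. The difference of -0.80 was the most negative of the 10 and also the least certain (SE 0.245, 95% interval -1.37 to -0.22, fold 0.576, unadjusted p = 0.0135, adjusted p = 0.375 in limma). It was -1.09 without control replicate 1 (adjusted p = 0.0592 in limma) and -0.61 without control replicate 2 (unadjusted p = 0.0529). Its values also lie below the array medians, a range in which RMA compresses differences.

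Tdrd7 encodes a Tudor protein that shapes the chromatoid body and also acts in the lens of the eye. On cluster 10504672 (chromosome 4) it gave 9.62, 9.70 and 9.67 in knockout arrays, against 9.75, 9.85 and 9.80 in control arrays. The groups were separate by a small gap, between knockout replicate 2 and control replicate 1. The difference was -0.14 (SE 0.046, 95% interval -0.24 to -0.028, fold 0.910, unadjusted p = 0.0201, adjusted p = 0.389 in limma). The unadjusted p of Tdrd7 was above 0.05 without knockout replicate 1 and without control replicate 2. Rnf17 encodes a RING finger and Tudor protein that restrains the piRNA amplification cycle. In cluster 10415472 (chromosome 14) it had 10.40, 10.45 and 10.56 in knockout arrays, against 10.58, 10.56 and 10.56 in control arrays. Knockout replicate 3 equalled the lower controls, and the control values were nearly alike (SD 0.012), against an SD of 0.082 in the knockout. Rnf17 differed by -0.097 (SE 0.051, 95% interval -0.22 to 0.023, adjusted p = 0.551 in limma).

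Stk31 encodes a protein with a Tudor domain and a kinase-like domain, known from germ cells. Its cluster (10538222, chromosome 6) read 10.11, 10.16 and 10.28 in knockout arrays, against 10.20, 10.29 and 10.25 in control arrays. The groups overlapped, with knockout replicate 3 between the higher controls, and the difference was -0.063 (SE 0.056, 95% interval -0.19 to 0.068, adjusted p = 0.739 in limma). Tdrd3 is used widely outside germ cells, where it joins the topoisomerase of Top3b and binds methylated arginines of histones. With 9.87, 9.93 and 9.84 in knockout arrays, against 9.85, 9.89 and 9.87 in control arrays, cluster 10416709 (chromosome 14) gave overlapping groups. Its difference of 0.010 (SE 0.043, 95% interval -0.090 to 0.11, adjusted p = 0.958 in limma) was the 1 positive value among the members, and its sign was not kept in every setting, nor was that of Tdrkh. Differences between members were not tested.

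**Figure D2:**
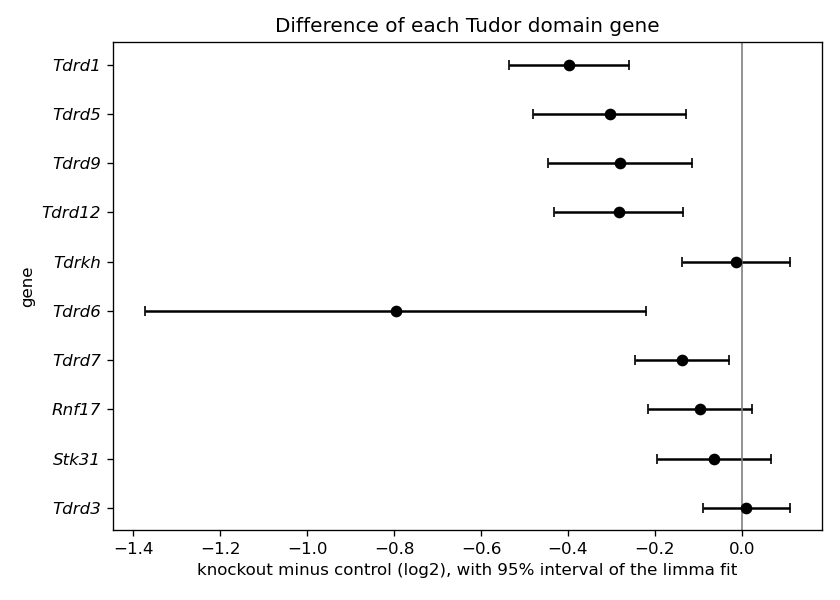
Difference of each Tudor domain gene, knockout minus control on the log2 scale, with the 95% interval of the limma fit (n = 3 arrays per group). Intervals lie below 0 for Tdrd1, Tdrd5, Tdrd9, Tdrd12, Tdrd6 and Tdrd7 and cross 0 for Tdrkh, Rnf17, Stk31 and Tdrd3; no member passed after adjustment over all clusters.

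Set among all tested clusters, the members spread from the far lower tail to the middle. A more negative difference than that of Tdrd6 was found in 0.13% of the clusters, and than that of Tdrd1 in 1%. For Tdrd5, Tdrd9 and Tdrd12 these shares were 1.79%, 2.08% and 2.01%, and for Tdrd7 7.7%. Rnf17, Stk31, Tdrkh and Tdrd3 lay closer to the middle, with 13.03%, 20.86%, 40.68% and 53.84%.

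**Figure D3:**
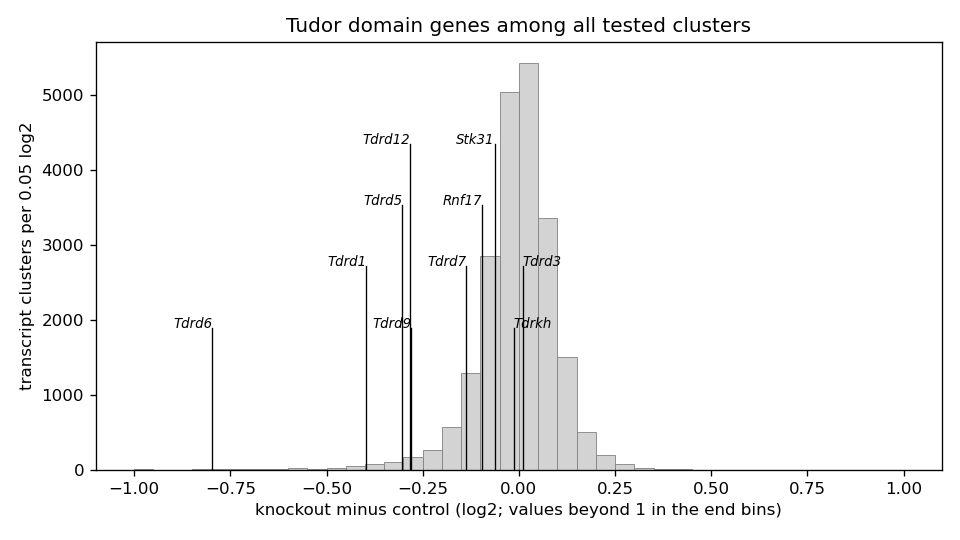
Number of tested transcript clusters per 0.05 log2 of the difference, knockout minus control (grey bars), with the 10 Tudor domain genes as labelled lines whose heights carry no value. Tdrd6 (-0.80) and Tdrd1 (-0.40) stand farthest left, and Tdrd3 (0.010) stands near the centre.

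Within the groups, most members had the same arrays at their ends. These counts were not made over all clusters, so the order of arrays may not be particular to the members. Knockout replicate 1 had the lowest knockout value, ties included, in 8 of the 10 genes and knockout replicate 3 the highest in 7. Among the controls, replicate 1 was lowest in 9 genes and replicate 2 highest in 8. The mean of the 10 genes was 9.64, 9.69 and 9.77 in knockout replicates 1, 2 and 3, against 9.83, 10.03 and 9.95 in control replicates 1, 2 and 3. Tdrd6 weighs most in this mean, at -0.98 in knockout replicate 1 and -0.59 in control replicate 1 from its control mean. The median deviation of the members was -0.235, -0.188 and -0.157 in the knockout arrays, against -0.065, 0.06 and 0 in the control arrays, in the same order. The 13 pachytene spermatocyte clusters had the same arrays at their ends, with means of 8.59, 8.64 and 8.76 in the knockout arrays, against 8.72, 9.15 and 9.08 in the control arrays. Of these 13, 7 were lower at an unadjusted p under 0.05, 0 passed after adjustment and the groups' means overlapped. The share of all tested clusters lower at that p was 6.45%. The part of pachytene cells in the Tudor domain results was not tested.

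Markers of the other cell types of the testis are given beside the Tudor genes, counted at an unadjusted p under 0.05. By that count 6.45% of all tested clusters were lower and 4.1% higher, so single clusters in short lists say little. Of 13 leptotene and zygotene clusters 3 were lower, with means of 10.40 to 10.62 in knockout and 10.54 to 10.62 in control arrays. Spermatogonial markers went both ways, with 3 of 11 undifferentiated clusters lower and 3 higher (means of 9.37 to 9.44 in knockout, 9.31 to 9.52 in control arrays) and 3 of 8 differentiating ones lower and 1 higher (10.09 to 10.11 in knockout, 10.11 to 10.21 in control arrays). For round spermatids, not yet formed at this age, 1 of 8 clusters was higher (6.85 to 6.90 in knockout, 6.87 to 6.90 in control arrays). Of the 12 Sertoli clusters 1 was higher, and their mean lay at 11.50 to 11.56 in knockout arrays, above 11.42 to 11.48 in control arrays. Macrophage means were likewise separate, at 9.03 to 9.09 in knockout against 8.88 to 9.01 in control arrays, with 3 of 9 clusters higher. Leydig markers had 1 of 5 clusters lower and 1 higher (9.76 to 9.97 in knockout, 9.50 to 9.86 in control arrays), and the 1 erythrocyte cluster was higher (8.53 to 8.68 in knockout, 8.08 to 8.52 in control arrays). Peritubular myoid (5 clusters), endothelial (6) and epididymal (3) markers had 0 clusters under that p in either direction. Their means ran from 10.34 to 10.49, 8.46 to 8.62 and 6.56 to 6.81 in knockout arrays, against 10.36 to 10.50, 8.48 to 8.65 and 6.72 to 6.95 in control arrays. No marker cluster passed after adjustment, array values have no true 0, and the part of these cells in the Tudor results was not tested.

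**Figure D4:**
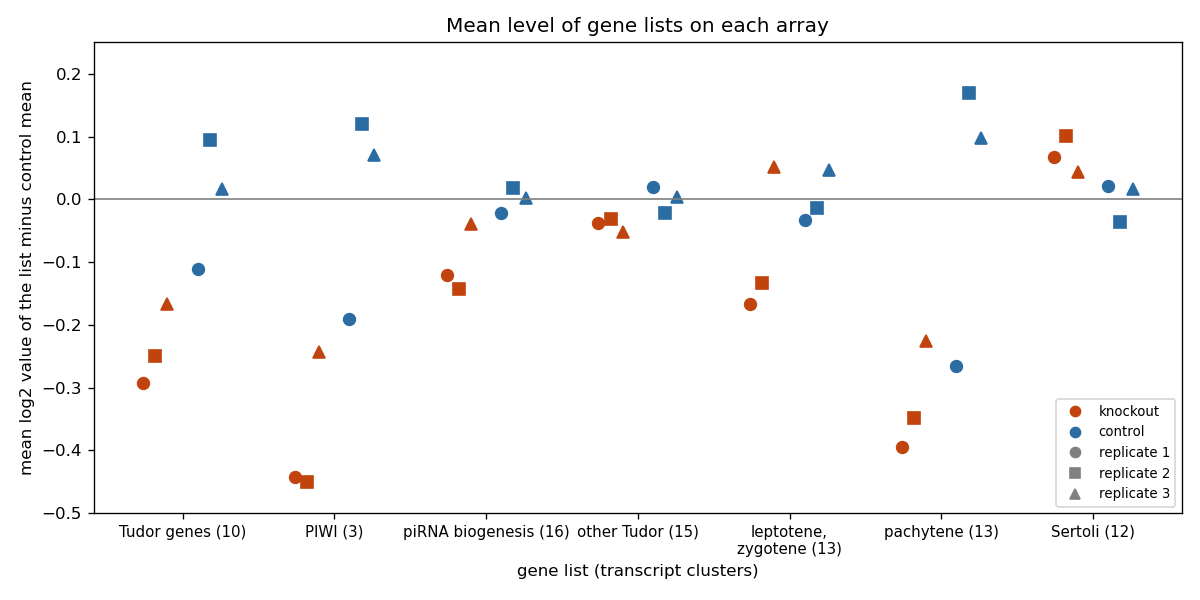
Mean log2 value of each gene list on each array minus the mean of the 3 control arrays, for the Tudor domain genes, partner lists and cell type markers; knockout (red) stands left of control (blue), shapes are replicate numbers, and numbers in brackets count clusters. Knockout arrays lie between -0.29 and -0.17 for the Tudor genes, against -0.11 to 0.095 for the controls, and the pachytene list has control replicate 1 (-0.27) among its knockout arrays (-0.39 to -0.23).

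Of the PIWI genes, whose proteins Tudor domains bind, 0 passed after adjustment in limma. All 3 were lower at an unadjusted p under 0.05, with differences of -0.28 for Piwil4 (SE 0.051), -0.18 for Piwil2 (SE 0.052) and -0.67 for Piwil1 (SE 0.23) and adjusted p-values of 0.256 to 0.389 in limma. Piwil1, the PIWI protein of pachytene cells, read 9.92, 10.04 and 10.45 in knockout arrays, against 10.31, 11.12 and 11.00 in control arrays. As in Tdrd6, control replicate 1 and knockout replicate 3 overlapped. At an unadjusted p under 0.05, 6.45% of all tested clusters were lower and 4.1% higher. Of 16 clusters for 14 other genes of piRNA biogenesis and silencing, 6 were lower and 0 higher at that p. The smallest p-values belonged to Henmt1, which methylates piRNA ends (-0.32), Mael, a granule protein (-0.22), Pnldc1, which trims piRNA ends (-0.14), and Pld6, the mitochondrial nuclease of piRNA processing (-0.17). Their adjusted p-values were 0.242 to 0.359 in limma, and 0 clusters of the list passed.

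No cluster for the enzymes that mark PIWI arginines, for other chromatoid body genes or for Tdrd3 partners passed after adjustment. Prmt5, the methyltransferase whose marks Tudor domains read, differed by -0.12 (unadjusted p = 0.0350), and its partners Clns1a and Wdr77 by -0.097 and -0.057. The shares of all tested clusters at an unadjusted p under 0.05 were 6.45% lower and 4.1% higher. Among 9 clusters of 8 RNA-binding or RNA-processing genes of the chromatoid body, 4 were lower and 0 higher at that p. These were the translation regulator Cpeb1 (-0.16), the helicase gene Ddx25 (-0.24), the mRNA-storing Ybx2 (-0.30) and Dicer1, which cuts small RNAs (-0.14). Ybx2 is also on the pachytene list. Of the 6 partners of Tdrd3, 0 passed at an unadjusted p under 0.05, a list too short to set against those shares. The arginine methyltransferase gene Prmt1 differed by 0.093, Top3b by -0.063, the fragile X gene Fmr1 by 0.087 and its relative Fxr1 by -0.057.

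Tudor domain genes with functions outside the granule had small differences. Of 15 clusters for 14 such genes 3 were lower and 0 higher at an unadjusted p under 0.05, and 0 passed after adjustment. Over all clusters 6.45% were lower and 4.1% higher at that p. In 5 of the 15 all knockout values lay below all control values, a separation seen in 8.6% of clusters. Their mean was also separate, at 9.79 to 9.81 in knockout and 9.82 to 9.86 in control arrays. Separation in the lower direction was thus not particular to the granule members. Smn1, which assembles spliceosomal particles, differed by -0.17, the Polycomb-associated Phf1 by -0.17, Alg13 by -0.097 and the nuclear lamina receptor gene Lbr by -0.097 (unadjusted p = 0.0581). Their median difference was -0.023, against -0.21 for the granule members, and this contrast between the lists was not tested. The 15 clusters ranged from -0.17 to 0.070, and the 10 members from -0.80 to 0.010. Means of the PIWI list were also separate, at 9.59 to 9.80 in knockout and 9.85 to 10.16 in control arrays. So were those of piRNA biogenesis (10.59 to 10.69, against 10.71 to 10.75) and arginine methylation (10.98 to 11.08, against 11.11 to 11.18). Chromatoid body means were separate too (10.34 to 10.36, against 10.44 to 10.50), while Tdrd3 partner means overlapped (10.88 to 10.90, against 10.87 to 10.92).

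The genes whose pattern over the 6 arrays was most like the mean of the members were sought among 1175 clusters with a range of at least 0.5 log2. Tdrd6 weighs most in that mean, so likeness to it is not likeness to each member. Tuba3b, a testis alpha tubulin, came first with a Pearson correlation of 0.999 over the 6 arrays. Its values of 11.21, 11.24 and 11.38 in knockout arrays, against 11.45, 11.76 and 11.65 in control arrays, kept the array order of the members' mean. Ppp3r2, a calcineurin subunit of testis, followed with 0.997, the kinase gene Stk33 with 0.996, 1700016K19Rik with 0.995 and Dnah7a, an axonemal dynein heavy chain, with 0.994. With 6 arrays in 2 groups such values are easily reached: 280 of the 1175 clusters had a correlation over 0.9.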

How the data were processed

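Testis RNA of 3 knockout and 3 control samples was measured on 6 Affymetrix arrays. The deposited table holds log2 values, which per the submitters' processing notes were made by the authors with RMA in Affymetrix Expression Console. Not given in the sources used here: software version, probe annotation and build. The authors' RMA gives all arrays 1 distribution, so a shift of all transcripts would not be seen. The number of arrays limits the precision. At most 4.12% of values were identical between any pair of arrays.

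Of 35556 rows, 21789 carried 1 gene symbol in the platform annotation and were tested, 1621 carried several and 12146 none. Current symbols were looked up by gene identifier in the table of GRCm38.p6 (21698 matched). The groups were compared with limma 3.58.1 under R 4.3.3 (lmFit, eBayes, no covariates, 3.24 prior and 4 residual degrees of freedom). Benjamini-Hochberg adjustment ran over all 21789 clusters, with a threshold of 0.05. Groups and replicate numbers came from the labels. The procedure was tested on simulated data.

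The members and lists (PIWI proteins, piRNA biogenesis, arginine methylation, Tdrd3 partners, chromatoid body, other Tudor proteins and 12 sets of cell type markers) were chosen with earlier results of these data known. All members are described. Of each partner list the genes with the smallest p, up to 4, are named, and the 5 clusters most like the mean of the members; any gene outside this rule is marked in the text as picked with its values in view. The 12 alternatives were a replicate block, an intensity trend with robust prior, all rows tested, clusters with a mean under 6 left out, median centring, repeated quantile normalisation and each array left out. The targeted gene is not reported here.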

Additional observations from a re-analysis of the deposited data

How the results depend on the processing

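No member passed an adjusted p of 0.05 in limma in 11 of the 12 alternatives, and 1 (Tdrd1) passed in the other, without control replicate 1, so the count ran from 0 to 1 when single arrays were left out. The differences of Tdrd1, Tdrd5, Tdrd6, Tdrd7, Tdrd9, Tdrd12, Rnf17 and Stk31 were negative in all 12. The unadjusted p was under 0.05 in all 12 for Tdrd1, Tdrd5, Tdrd9 and Tdrd12, in 11 for Tdrd6, in 10 for Tdrd7, in 1 for Rnf17 (without knockout replicate 3) and in 0 for Tdrkh, Stk31 and Tdrd3. Small differences changed sign: that of Tdrkh was 0.0067 with arrays centred on their medians and -0.058 to 0.022 when single arrays were left out, where that of Tdrd3 was -0.015 to 0.030. The median of the members ran from -0.24 to -0.16 when single arrays were left out, and no partner cluster passed in any alternative. The count over all clusters, 3, was 0 with the replicate block, 0 with all rows tested, 7 with an intensity trend and robust prior, and 0 to 52 when single arrays were left out (52 without control replicate 1, 1 without control replicate 2 and 0 without any of the others). The cause was not tested. The labels do not say whether samples of the same replicate number are paired. The correlations of their deviations from the group means were 0.166, -0.054 and 0.17 for replicates 1, 2 and 3. Knockout replicates 1 and 3 correlated best with the control of their own number. Knockout replicate 2 correlated best with control replicate 1 (0.084). With the replicate block 0 members passed, and 6 had an unadjusted p under 0.05, where 6.57% of all clusters were lower at that p. Over the 12 alternatives this share of all clusters ran from 4.41% to 7.4%.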
